A study of Mus musculus with 6 samples.

Results

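The regions described here are peaks of labelled DNA ends in vehicle-treated mouse fibroblasts whose summit, the base of highest signal, lay just outside a protein-coding gene. They were chosen by position alone. The summit had to lie within 1 kb of an end of exactly 1 protein-coding gene of the RefSeq table of the GRCm38 (mm10) assembly, and outside that gene's span. Summits in a dense region of chromosome 15 that spans 2.3 Mb were left out. Of the 6444 peaks of the DMSO list, 1700 met the rule (26.4%, exact 95% interval 25.3 to 27.5), and they are called flanking peaks below. Another 1259 peaks met it except that the summit lay inside the gene (called inside peaks), 723 lay at ends of several coding genes, 1292 lay deeper in a coding gene, 964 lay away from coding genes and 506 lay in the dense region.

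The cells were passage-immortalized mouse embryonic fibroblasts of genotype ATR+/- that expressed Bcl-xL, an inhibitor of apoptosis, so every group shared the loss of 1 Atr allele and the Bcl-xL. The 6 samples comprised 2 pull-downs and 1 input after 18 h of DMSO, and 2 pull-downs and 1 input after 18 h of 1 µM ATR-45 together with 0.2 µM aphidicolin (called treated below). ATR-45 blocks ATR, the kinase that guards stalled replication forks, and aphidicolin slows forks by blocking DNA polymerases. In BrITL, DNA ends in permeabilized cells are labelled with Biotin-16-ddUTP, captured on streptavidin beads and sequenced, to find where breaks gather when forks collapse without ATR. Each condition was deposited as 1 pooled peak list, so no value below has a replicate error and no difference between peaks or lists could be tested against the spread of samples. Shares carry exact 95% intervals (Clopper-Pearson), which describe counting error alone.

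The DNA just upstream of a gene holds its promoter, where general transcription factors place RNA polymerase II at the start site. Most promoters of broadly expressed mammalian genes lie in CpG islands, stretches rich in G, C and the dinucleotide CpG, which are usually free of nucleosomes and DNA methylation near the start. Such promoters often fire in both directions, giving the gene's transcript and a short or long non-coding RNA on the opposite strand. Polymerase that pauses after initiation, RNA-DNA hybrids and topoisomerase cuts make promoters known places of DNA ends.

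To show what lay under the summits, 6 promoter windows of 300 bases (250 before and 50 after the listed start) were taken from the RefSeq promoter table of GRCm38. They belong to the flanking peaks of highest fold enrichment whose summit fell inside such a window. The windows are Tubb4b at chr2:25224653-25224952 (minus strand), Rab40c at chr17:25919665-25919964 (minus), Kpnb1 at chr11:97187843-97188142 (minus), Gpbp1 at chr13:111490078-111490377 (minus), Mdc1 at chr17:35841248-35841547 (plus) and Lrch4 at chr5:137628873-137629172 (plus). Each is written 5′ to 3′ on the gene's strand. Capitals mark matches to the GC box (GGGCGG or its reverse complement CCGCCC), the sequence bound by Sp1 and its relatives, and to the CCAAT box (CCAAT or ATTGG), bound by NF-Y.
Tubb4b: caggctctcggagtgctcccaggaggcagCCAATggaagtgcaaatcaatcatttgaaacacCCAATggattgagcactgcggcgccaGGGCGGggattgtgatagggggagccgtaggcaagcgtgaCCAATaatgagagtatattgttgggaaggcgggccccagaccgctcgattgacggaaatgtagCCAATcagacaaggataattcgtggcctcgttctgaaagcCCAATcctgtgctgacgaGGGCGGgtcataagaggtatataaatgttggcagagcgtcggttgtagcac
Rab40c: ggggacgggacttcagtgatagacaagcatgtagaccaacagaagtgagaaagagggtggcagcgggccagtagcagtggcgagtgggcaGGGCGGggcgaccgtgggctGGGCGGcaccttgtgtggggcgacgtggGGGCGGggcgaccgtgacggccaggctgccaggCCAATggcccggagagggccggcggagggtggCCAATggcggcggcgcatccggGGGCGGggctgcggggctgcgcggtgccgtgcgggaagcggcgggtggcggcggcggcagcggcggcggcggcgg
Kpnb1: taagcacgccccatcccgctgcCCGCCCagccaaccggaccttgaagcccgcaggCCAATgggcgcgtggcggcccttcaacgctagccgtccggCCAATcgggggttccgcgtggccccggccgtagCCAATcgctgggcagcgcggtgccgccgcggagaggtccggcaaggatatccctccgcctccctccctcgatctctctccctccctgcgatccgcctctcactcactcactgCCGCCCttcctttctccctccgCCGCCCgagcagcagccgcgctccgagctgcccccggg
Gpbp1: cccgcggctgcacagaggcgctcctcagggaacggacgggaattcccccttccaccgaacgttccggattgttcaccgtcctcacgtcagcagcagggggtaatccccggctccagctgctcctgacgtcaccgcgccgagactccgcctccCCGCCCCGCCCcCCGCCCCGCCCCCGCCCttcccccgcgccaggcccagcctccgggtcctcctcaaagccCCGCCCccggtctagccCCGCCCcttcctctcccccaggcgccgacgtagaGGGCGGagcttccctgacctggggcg
Mdc1: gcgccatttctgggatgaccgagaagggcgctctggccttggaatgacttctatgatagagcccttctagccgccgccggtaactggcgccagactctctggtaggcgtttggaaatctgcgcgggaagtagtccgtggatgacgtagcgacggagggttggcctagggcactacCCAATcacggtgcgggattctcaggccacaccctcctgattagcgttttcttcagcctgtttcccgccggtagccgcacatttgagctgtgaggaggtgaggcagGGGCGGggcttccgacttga
Lrch4: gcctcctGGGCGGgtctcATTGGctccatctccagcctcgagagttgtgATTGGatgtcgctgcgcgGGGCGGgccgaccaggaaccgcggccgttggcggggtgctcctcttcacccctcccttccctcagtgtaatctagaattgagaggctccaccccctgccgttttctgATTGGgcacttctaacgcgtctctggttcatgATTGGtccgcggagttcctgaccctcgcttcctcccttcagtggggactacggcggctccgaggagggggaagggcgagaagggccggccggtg
In Tubb4b, which encodes a beta-tubulin, the summit was base 68 of the window, and the window held 5 CCAAT boxes and 2 GC boxes. In Rab40c, for a small GTPase, the summit was base 41, and 4 GC boxes and 2 CCAAT boxes were found. The window of Kpnb1, for the nuclear import receptor importin beta, held 3 of each and had the summit at base 204. Gpbp1, for a protein that binds GC-rich promoters, held 8 GC boxes (some overlapping) and no CCAAT box, with the summit at base 56. Mdc1, for an adaptor of the DNA damage checkpoint, held 1 of each with the summit at base 179, and Lrch4 held 4 CCAAT boxes and 2 GC boxes with the summit at base 33. Their GC contents ran from 53.7% (Tubb4b) to 75.3% (Rab40c). A match here is a description of letters and not a bound site.

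The flanking peaks lay almost entirely at gene starts. The rule did not use strand. Strand was known for the genes of 1415 flanking peaks through the promoter table, which covers 17492 of the 21887 coding genes (79.9%), and was unknown for 285. Of the 1415, 1379 lay upstream of the start (97.5%, 96.5 to 98.2) and 36 lay beyond the far end. Of the inside peaks with known strand, 998 of 1025 (97.4%, 96.2 to 98.3) were beside a start. The shares of both classes differed by less than counting error.

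Summits gathered in the stretch just upstream. Beside starts, 241 summits lay 1 to 100 bp upstream, 260 lay in the next 100 bp, then 253, 233, 168, 109, 58 and 29 in successive steps of 100 bp, and 13 and 15 in the last steps before the 1 kb limit. The median distance was 277 bp (quartiles 143 and 426) beside starts and 278 bp over all 1700. Within 500 bp lay 1410 of 1700 summits (82.9%), and beyond 900 bp only 24 (1.41%), so the limit set by the rule cut a thin tail. Inside peaks thinned out more slowly on the gene side, from 195 in the first 100 bp to 37 in the last. At the limit itself, the summit at Bmpr2 (a BMP receptor) lay at 1000 bp with a fold of 13.7 and was kept, and the summit at Nrp1 (a semaphorin and VEGF co-receptor) lay at 1001 bp with a fold of 16.8 and was not. The other summits just inside were at Nsd2 (995 bp), Skil (992 bp), Maf (985 bp) and Foxo6 (983 bp). Those just outside were at Rpl3 (1007 bp), Ube2r2 (1015 bp), Taf4 (1020 bp) and Trappc3 (1028 bp).

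Although the summit was outside by rule, the called peak usually spanned the start. The peak reached into the gene at 1660 of 1700 (97.6%, 96.8 to 98.3) and covered at least 500 bp on both sides of the gene end at 1561 (91.8%). Beside starts the peak reached a median of 1469 bp into the gene and 1496 bp outward. The middle of the peak therefore lay close to the start, at a median position of -11 bp (quartiles -194 and 168, where negative values are upstream), while inside peaks were centred at 234 bp. At 1000 bp upstream 87.7% of flanking peaks and 66.9% of inside peaks were still within the called interval, and at 1000 bp downstream the shares were 85.9% and 92.3%. Both classes thus covered the same stretch around the start, shifted by about the distance between their centres. Only 69 summits (4.06%) lay within another coding gene.

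**Figure D1:**
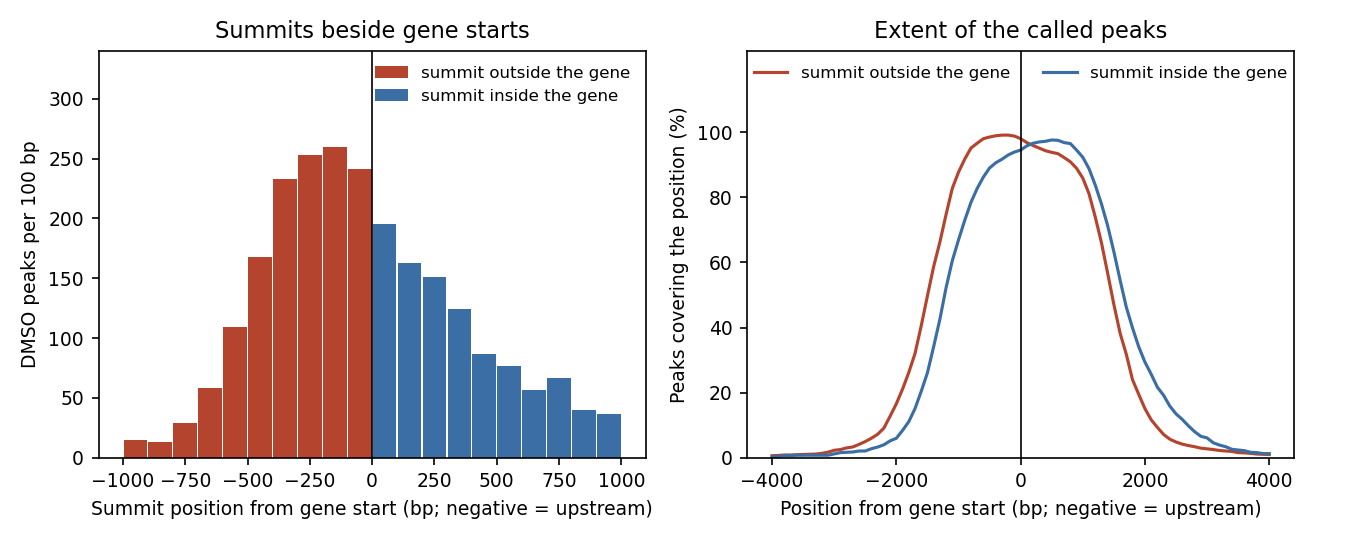
The left panel counts DMSO peaks by the position of the summit from the gene start in steps of 100 bp, for flanking peaks (red) and inside peaks (blue). The right panel gives the share of peaks of each class whose called interval covers each position, and shows the flanking peaks covering both sides of the start, 87.7% at 1000 bp upstream and 85.9% at 1000 bp downstream.

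The strength of a peak is given by the authors' fold enrichment at the summit, the pull-down signal over the background term of the caller. Over the 1700 flanking peaks it ran from 5.76 to 33.8 with a median of 11.9 (quartiles 10.3 and 14.4). The median was 11.5 at inside peaks, 11.7 at ends of several genes, 11.1 deeper in genes and 10.5 away from coding genes, differences smaller than the spread within each of these classes. In the dense region it was lower, at 4.91 (quartiles 4.32 and 5.46). Each summit rested on a median of 50 pull-down fragments (35 to 138), a coverage worked back from the fold and p of the caller. At that depth counting error alone is wide: the 50 fragments at the summit beside Mrpl58 have an exact Poisson interval of 37.1 to 65.9. The background term had a median of 2.32 on the scale of the caller, on which 1 pull-down fragment counts as 0.805, and lay above the floor of the list at 329 flanking peaks (19.4%). Width had a median of 2928 bp (150 to 10578) and rose with fold across peaks (Spearman's correlation 0.589 over 1700 peaks, which share libraries and a caller). Fold showed almost no relation to distance from the gene (correlation 0.0294) or gene length (correlation 0.00736).

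The strongest flanking peak was at Setd5, a chromatin protein with a SET domain, with its summit 44 bp from the start, 138 fragments (116 to 163) and a fold of 33.8. An end of the non-coding gene Gt(ROSA)26Sor, the Rosa26 locus used for transgenes, also lay within 1 kb of that summit. Sp1, the factor that binds the GC box, came next with a fold of 31.4 and 128 fragments (107 to 152), and its summit was 589 bp from the start. These 2 stood above the rest, since the next highest values were 27.7 at Camta1, a calmodulin-binding transcription activator, and 27.3 at Bhlhe40, a helix-loop-helix repressor. Fosl2, an AP-1 subunit, had a fold of 26.8, and Rab40c and Tubb4b both had 26.3. Pknox1, a homeodomain cofactor, had 25.3, the ubiquitin ligase scaffold Cul3 had 25.1, and the cytokine gene Clcf1 had 24.6. Ptma (prothymosin alpha) had 23.9 and Srgap2, a GTPase-activating protein, had 23.6. The counting intervals of neighbours in this order overlap, including those of Setd5 and Sp1.

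Width picked out other genes. The widest flanking peak, 10578 bp, was at Wt1, a zinc finger factor of mesothelium and kidney, with a fold of only 11.9, and it reached 8992 bp into the gene. Ccn1, a matricellular immediate early gene, had 10148 bp and a fold of 18.3. The AP-1 gene Junb had 9490 bp with a fold of 10.5, Znrd2 had 9074 bp with 11.7, and Mdc1 had 8835 bp with 23.1. The rule counts gene ends near the summit only, so a wide peak may cover ends of further genes. At the other extreme lay Gm13283 (150 bp), H4c18 (151 bp) and the first of 2 peaks at Fcgr3 (153 bp).

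**Figure D2:**
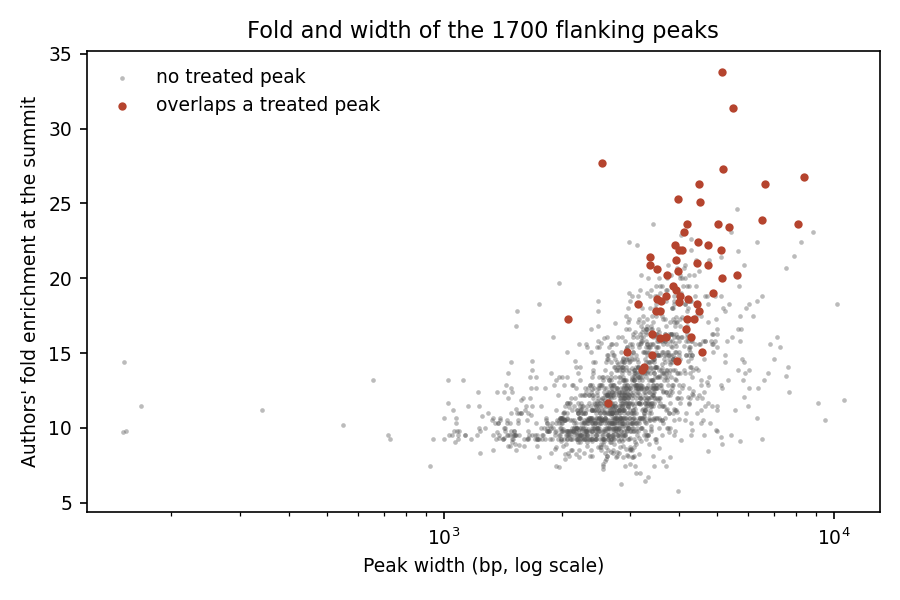
Each point is 1 of the 1700 flanking peaks, with the width of the called interval on a log axis and the authors' fold enrichment at the summit. Red points are the 60 peaks that share bases with a treated peak, which lie at folds from 11.7 to 33.8.

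The base composition of the promoter windows, which the rule did not use, differed from that of coding genes at large. For 1190 genes with a flanking peak beside a start, a listed start lay within 100 bp of the gene's edge and its 300-base window was read. The median GC content was 65.7%, against 55.3% over the windows of 13537 coding genes, and the median ratio of observed to expected CpG was 0.854 against 0.546. With CpG-rich defined as a GC fraction of at least 0.5 and a CpG ratio of at least 0.6, 1072 of the 1190 windows were CpG-rich (90.1%, 88.2 to 91.7), against 43.6% (42.8 to 44.4) of coding genes. The share at inside peaks was 80.6% (77.5 to 83.4), below that of flanking peaks by more than counting error. The windows lie mostly upstream of the start, the side of the flanking summits, while inside summits beside starts lay a median of 292 bp into the gene. A window was read for 1190 of 1377 genes with flanking peaks beside a start and for 717 of 996 with inside peaks. The part of these unlike placements and selections in the difference was not tested. GC content can itself change how well DNA is amplified and sequenced, and its part in the result was not tested. Within the flanking peaks, fold moved little with the CpG ratio (correlation 0.0191) or GC content (correlation 0.0809, 1191 peaks with a window).

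Exceptions to the CpG rule included strong peaks. Vim, which encodes the fibroblast intermediate filament vimentin, had a fold of 23.1 and a CpG ratio of 0.421. Plekhh3 had 21.2 and a ratio of 0.516, and Ticam1, an adaptor of innate immune receptors, had 20.2 and a ratio of 0.380. Lrp1, an endocytic receptor, had 18.0 and a ratio of 0.590, and Mus81, a structure-specific endonuclease that cuts stalled forks, had 17.5 and a ratio of 0.342. In these 5 the summit lay 292 to 631 bp from the gene, before the first base of the window, but in the next of the CpG-poor peaks by fold, Rtn4 (17.3), Gys1 (17.3) and Gm14137 (16.8), it lay 83, 225 and 216 bp from the gene.

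The windows were then searched on both strands for 10 short motifs, with matches free to overlap each other and those of other motifs. The GC box (GGGCGG) was found in 987 of 1190 windows of flanking peaks (82.9%, 80.7 to 85.0), against 44.5% of coding genes. Much of that gap went with CpG content: among CpG-rich windows the shares were 85.1% (82.8 to 87.2) and 76.7% (75.6 to 77.8). The CCAAT box (CCAAT) was found in 49.4% against 40.6%, and among CpG-rich windows in 48.5% (45.5 to 51.5) against 39.8% (38.5 to 41.1), so that gap did not shrink with CpG content. Inside peaks had close to the same shares among CpG-rich windows, 49.5% (45.3 to 53.6) for the CCAAT box and 82.7% (79.4 to 85.7) for the GC box, so neither feature set the flanking peaks apart from them. The TATA box (TATAAA) was rarer, at 4.87% against 14.8%, but among CpG-rich windows it was at 4.66% against 5.23%. The AP-1 site (TGANTCA) was at 2.86% against 7.31%, and among CpG-rich windows at 2.05% (1.29 to 3.09) against 3.35% (2.91 to 3.85).

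The other 6 motifs were commoner than in coding genes at large, and for most of them the gap closed among CpG-rich windows. The ETS site (CCGGAAG) was at 18.4% against 12%. Among CpG-rich windows it was at 18.8% (16.5 to 21.2) against 21.5% (20.5 to 22.6), lower in direction but with intervals that overlap. The E box (CACGTG) was at 12.4% against 7.93%, then at 12.9% against 12.2%. The YY1 site (AANATGGC) was at 9.83% against 6.87%, then at 9.98% against 9.62%. The CRE (TGACGTCA) was at 3.87% against 2.47%, then at 4.01% against 4.34%. The NRF1 motif (GCATGCGC) was at 9.50% against 3.78%, then at 9.89% (8.17 to 11.8) against 7.10% (6.46 to 7.78). The CGCG element (TCTCGCGA) was at 3.70% against 1.45%, then at 3.82% (2.76 to 5.15) against 2.98% (2.56 to 3.45).

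The CCAAT box also went with the strength of the peak. The flanking peaks were divided into 5 equal groups of 340 by fold. Among CpG-rich windows, the share with a CCAAT box was 42.4% (35.4 to 49.6) in the group of lowest fold, then 39.9%, 44.3% and 55.9%, and 58.5% (51.8 to 65.0) in the group of highest fold. The mean number per window went from 0.657 to 1.34. The ETS site went the other way at the top, from 19.7% (14.4 to 25.9) in the lowest group to 12.2% (8.28 to 17.2) in the highest, with 24.4%, 17.6% and 20.3% between. The NRF1 motif went from 13.1% (8.76 to 18.6) over 10.8%, 11.9% and 8.56% to 5.68% (3.06 to 9.51). Between the lowest and the highest group the E box went from 18.7% to 10.9%, the YY1 site from 11.1% to 6.55% and the CRE from 7.07% to 2.18%. The GC box was at 83.8% in the lowest group and 90.0% in the highest. These patterns were noticed in the data and are given as descriptions.

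**Figure D3:**
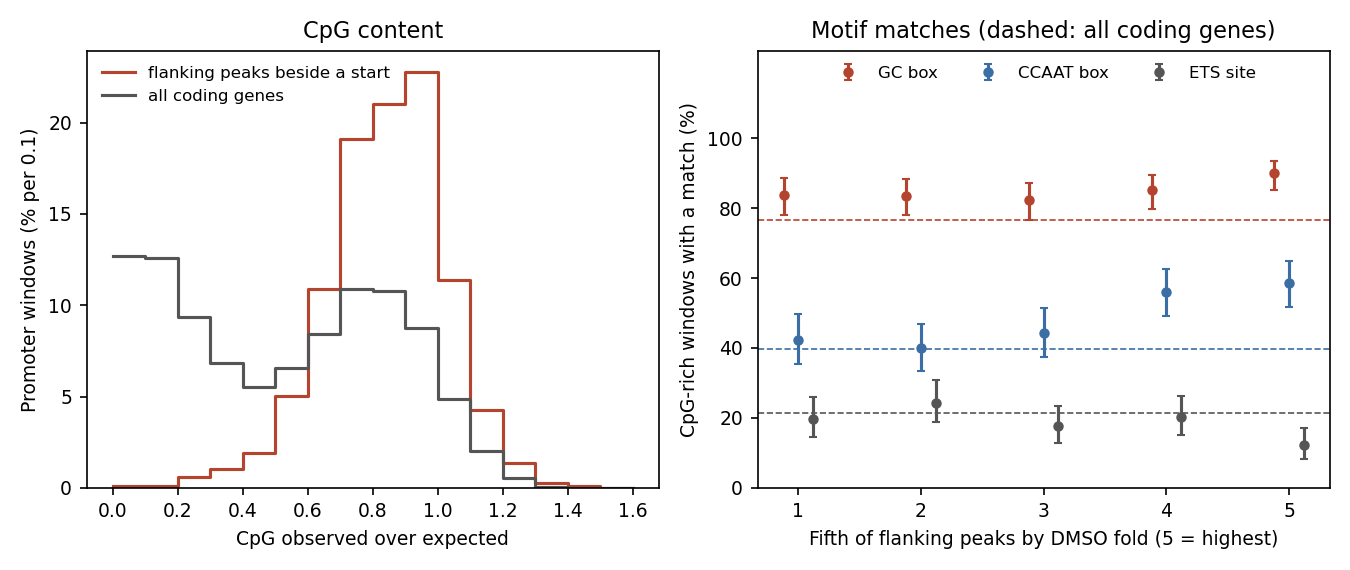
The left panel shows the ratio of observed to expected CpG in promoter windows of flanking peaks beside a start (red) and of all coding genes (grey), as the percentage of windows per step of 0.1. The right panel gives the share of CpG-rich windows with a GC box, CCAAT box or ETS site by group of fold, with exact 95% intervals and dashed lines for all coding genes, and shows the CCAAT share going from 42.4% to 58.5%.

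Ends of non-coding genes also lay near some of the summits. The rule counts coding genes only, and 316 of the 1700 summits (18.6%, 16.8 to 20.5) lay within 1 kb of an end of a non-coding gene, as did 227 of 1259 inside summits (18.0%). In 267 cases it was a long non-coding RNA (lncRNA), in 14 a miRNA, in 13 a tRNA, in 12 a pseudogene, in 7 a small nuclear RNA and in 5 a small nucleolar RNA. Examples are Gas5, a snoRNA host gene that starts upstream of Zbtb37 on the opposite strand (fold 15.1, 61 fragments), Zfas1 beside Znfx1 (fold 14.5), and Mir3091 beside the ribosomal gene Rps21 (fold 18.0).

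A divergent arrangement was looked for beside starts. Of the 1379 peaks beside a start, 136 (9.86%, 8.34 to 11.6) had the start of an lncRNA on the opposite strand upstream, at a median gap of 174 bp between the starts (quartiles 82.2 and 307). The summit lay between the 2 starts at 51 of the 136 (37.5%) and beyond the lncRNA start at the others. The share over all coding gene starts was not computed. Median fold was 12.9 with such an lncRNA and 11.7 without (1243 peaks). The strongest of them were at Cul3 (25.1, gap 223 bp to Gm39667), Baiap2l1 (23.6, gap 413 bp to Dmrt1i), Birc6 (21.9, gap 54 bp to Gm31645) and H2az1 (21.9, gap 161 bp to Gm43403). Fbxo11, for an F-box protein, followed with 21.4 and a gap of 80 bp, and Dazap2 with 20.9 and a gap of 552 bp.

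The 36 peaks beyond a far end included many at histone genes. Their fold had a median of 10.7 (quartiles 9.72 and 12.1), within the spread of peaks beside starts (quartiles 10.3 and 14.6), and the summit was a median of 361 bp from the gene. Of the 36, 11 were at histone genes (30.6%, 16.3 to 48.1), which are short, lie in clusters and have near-identical copies, so that a read may belong to another copy. Of the 1690 genes with any flanking peak, 18 were in the histone list used below, which lacks H4c18, 1 of the 11. Only 4 of the 36 peaks also reached the start of their gene, and 5 had a non-coding gene end within 1 kb. The highest were Dlx2, a homeobox gene (18.5), H3c15 (18.3), H1f5 (16.3), and Atf6b and Ctdsp1 (both 16.1). At H3c15, a gene of 649 bp, the peak reached only 60 bp past the far end into the gene, and at H1f5, of 794 bp, it covered the whole gene.

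A second flanking peak at the same gene was rare and was found at 10 of 1690 genes. At 5 of these, 1 peak lay at the start and 1 beyond the far end: Ctdsp1 (folds 14.1 and 16.1), Mknk2 (15.8 and 9.05), Adamtsl4 (12.2 and 12), Klf6 (13.9 and 9.77) and Kazald1 (10.5 and 12). H2bc3 had the same pattern (12.4 and 9.53). Gm46294 had no known strand, and at Fcgr3 and Fgf18 both peaks lay upstream of the start. A further 48 genes had an inside peak as well and 84 had a peak deeper in the gene. Another DMSO summit lay within 2 kb at 64 flanking peaks (3.76%) and within 10 kb at 207 (12.2%).

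The genes were spread over all 21 chromosomes, but unevenly. Of 21887 coding genes, 1690 (7.72%) had a flanking peak. By chromosome the share ran from 4.24% (3.40 to 5.21) on chromosome 7 to 11.3% (9.65 to 13.2) on chromosome 5 and 11.2% (9.08 to 13.6) on chromosome 15 among the autosomes. On the X chromosome it was 6 of 966 genes (0.621%, 0.228 to 1.35), and on the Y chromosome 1 of 256 (0.391%). The X chromosome thus stood below every autosome by more than counting error. The whole DMSO list outside the dense region was sparse there too. It had 41 peaks on X (966 coding genes) and 10 on Y (256 coding genes). It had 512 on chromosome 5 (1269 coding genes) and 349 on chromosome 7 (2030 coding genes). The unevenness was thus not particular to flanking peaks.

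Gene lists were read against the 7.72% of all coding genes. That share covers many genes whose promoter window was not CpG-rich. Of the 5903 CpG-rich windows of coding genes, 1072 belonged to genes with a flanking peak beside a start. The lists were not matched for CpG content, and its part in their shares was not tested. The list of 51 cell cycle genes had 17 with a flanking peak (33.3%, 20.8 to 47.9), with a median fold of 12.3. They included the checkpoint kinase gene Wee1 (18.3), E2f3 and E2f1 (both 15.8), which encode activators of S phase genes, and Cdk9 (15.4), the kinase of elongation factor P-TEFb. Some genes are in several lists. Cdk9, Ccnt1 and Ccnt2 also counted under RNA polymerase II and pausing, and the cell cycle share without them was not computed. Ccng1 also counted under the p53 response. Of 26 immediate early and AP-1 genes 8 had one (30.8%, 14.3 to 51.8): Fosl2 (26.8), Ccn1 (18.3), Klf4 (18.0), Atf3 (15.8), Klf6, Ier2, Btg2 and Junb. Of 26 genes of TGF-beta and BMP signalling 8 had one (30.8%, 14.3 to 51.8). The inhibitors Skil and Smad7 led with 20.7 each, followed by the receptor Tgfbr1 (15.5) and the inhibitor Smad6 (14.1), while the common mediator Smad4 had 10.0.

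Genes of basic gene expression were also above the share of all genes. Splicing factors had 10 of 41 (24.4%, 12.4 to 40.3), led by Ptbp1 (19), Hnrnpa3 (17.8), Hnrnpr (17.3) and Hnrnpab (16.1). Translation factors had 8 of 36 (22.2%, 10.1 to 39.2), led by Eef1a1 (21.4), Eif3j1 (20.9), Eif5 (18.0) and Eif1 (17.8). The 78 cytosolic ribosomal protein genes had 16 (20.5%, 12.2 to 31.2), but at low fold, with a median of 10.5. Rps21 (18.0), Rps19 (14.4), Rps10 (12.4) and Rpsa (11.9) led them. Heat shock chaperones had 6 of 29 (20.7%, 7.99 to 39.7), led by Hspa5 (20.6), the chaperone of the endoplasmic reticulum, then Hspa9 (13.9), Hspa4 (12.2) and Hsph1 (11.6). Histone genes had 18 of 60 (30%, 18.8 to 43.2), among which the variant gene H2az1 was highest (21.9). That share was 11.7% with the limit at 2 kb.

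The remaining lists had intervals that reached the share of all coding genes. Genes of RNA polymerase II and pausing had 7 of 43 (16.3%, 6.81 to 30.7), led by the elongation factor Ell (18.8). The p53 response had 5 of 27 (18.5%, 6.30 to 38.1), led by Sesn2 (14.4) and Ppm1d (13.7). Matrix and cytoskeleton genes had 4 of 28 (14.3%, 4.03 to 32.7): Vim (23.1), Thbs1 (19.5), Vcl (12.9) and Col5a1 (10.7). Proteasome subunits had 3 of 32 (9.38%), Psmd5, Psmd3 and Psmc6.

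Genes that guard replication and repair breaks belong to the pathway that the treatment targets, and the intervals of their shares also reached that of all coding genes. The ATR and replication fork list had 5 of 46 (10.9%, 3.62 to 23.6): Gins2, a subunit of the replicative helicase (16.8), Rad9a of the checkpoint clamp (11.7), the fork remodeller Hltf (10.0), the helicase Blm (8.70), and Pola2 of primase-polymerase alpha (7.29), the last beyond its far end. Double-strand break repair had 4 of 43 (9.30%, 2.59 to 22.1): Mdc1 (23.1), the topoisomerases Top1 (15.1) and Top2b (10.0), and Bard1 (11.5). Topoisomerases cut DNA, so this share is that of the list as written and not of repair factors alone. The rule leaves out summits near several gene ends, which held peaks of 11 and 10 genes of these lists. With peaks at ends of every class, 47.8% of the fork list and 37.2% of the repair list had one, against 19.5% of all coding genes. Histone genes (83.3%), splicing factors (73.2%), heat shock chaperones (69.0%), translation factors (63.9%) and cell cycle genes (58.8%) were among the lists above both. Proteasome subunits (21.9%) and the lists described next were below both. A share above that of all coding genes was thus not particular to fork or repair genes. Genes at common fragile sites, long genes that break under replication stress, had 3 of 31 (9.68%, 2.04 to 25.8): Wwox (12), Magi1 (11.7) and Macrod2 (10.8). By ends of every class, 16.1% of that list had a peak.

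Genes of other cell types had 0 of 40 with a flanking peak (0 to 8.81%) and 1 of 40 with a peak at an end of any class. Of 8 fibroblast markers looked up, 3 had a peak at an end of any class (Fn1, Vim and Lox), and only Vim had a flanking peak. The share of all coding genes with a peak at an end of any class was 19.5%, and no interval was computed for the 8 markers. Col1a1, Col1a2, Sparc, Thy1 and Pdgfra had none. No RNA was measured, so the labelled cell type could not be checked by expression.

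**Figure D4:**
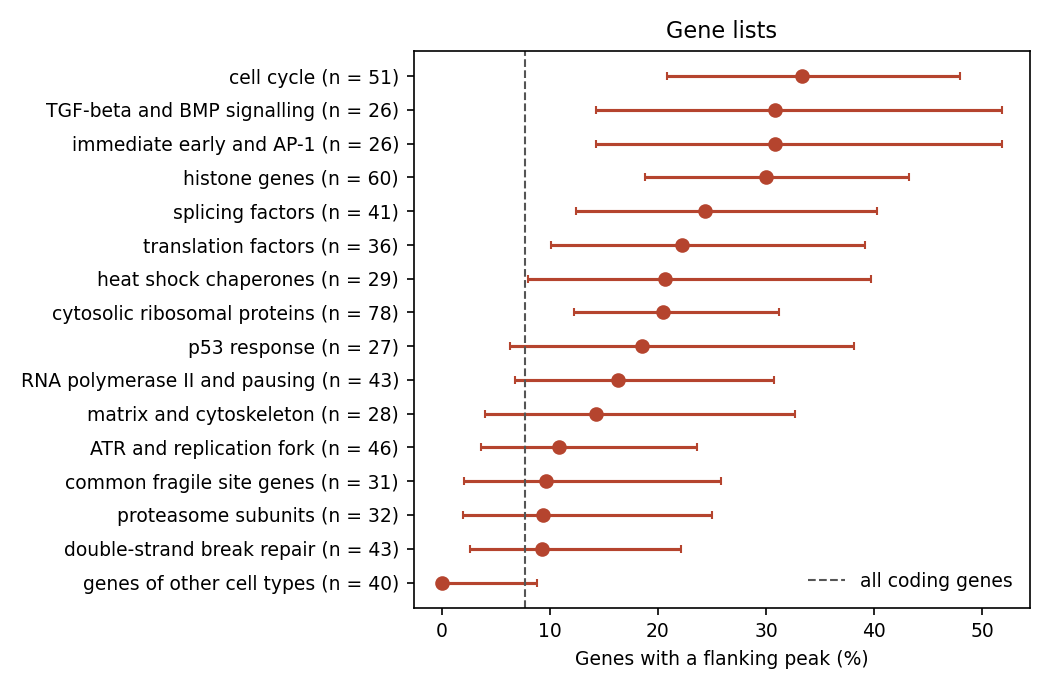
Share of the genes of each of 16 lists that had a flanking peak, with exact 95% intervals, and a dashed line at the 7.72% of all coding genes. The intervals of cell cycle, immediate early, TGF-beta and BMP, histone, splicing, translation, heat shock and ribosomal protein genes lie above the line, and no gene of other cell types had a flanking peak. The lists were not matched to all coding genes for CpG content.

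In treated cells few of these regions were called. Of the 1700 flanking peaks, 60 shared at least 1 bp with a treated peak (3.53%, 2.70 to 4.52), against 187 of all 6444 DMSO peaks (2.90%) and 155 of the 5938 outside the dense region (2.61%, 2.22 to 3.05). The share was 30 of 1259 (2.38%, 1.61 to 3.38) at inside peaks and 21 of 723 (2.90%) at ends of several genes. The intervals of these shares overlap. The 36 peaks beyond a far end had 0 (0 to 9.74%). The treated list held only 491 peaks, called against its own background, and the lists were cut at different q. The lowest −log10 q was 18.5 among flanking peaks and 3.55 among the treated peaks that met them. The overlap thus sets a strictly cut list against a laxer one, and absence from it does not show that ends were absent in treated cells.

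Overlap followed the strength of the DMSO peak. From the group of lowest fold to that of highest fold, 0, 0, 1, 5 and 54 of 340 flanking peaks shared bases with a treated peak. In the top group, with folds from 15.1 to 33.8, the share was 15.9% (12.2 to 20.2). The 60 had a median DMSO fold of 20.1 (11.7 to 33.8), and the other 1640 had a median of 11.7 and a highest value of 24.6. Among the 60, 55 lay beside a known start. Of the 49 with a promoter window, 48 were CpG-rich (98.0%), and in 31 of these a CCAAT box was found (64.6%, 49.5 to 77.8), with a mean of 1.88 per window. The mean was 0.889 in CpG-rich windows of flanking peaks without a treated peak, 1.34 in the group of highest fold, which holds 54 of the 60, and 0.655 over coding genes.

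**Figure D5:**
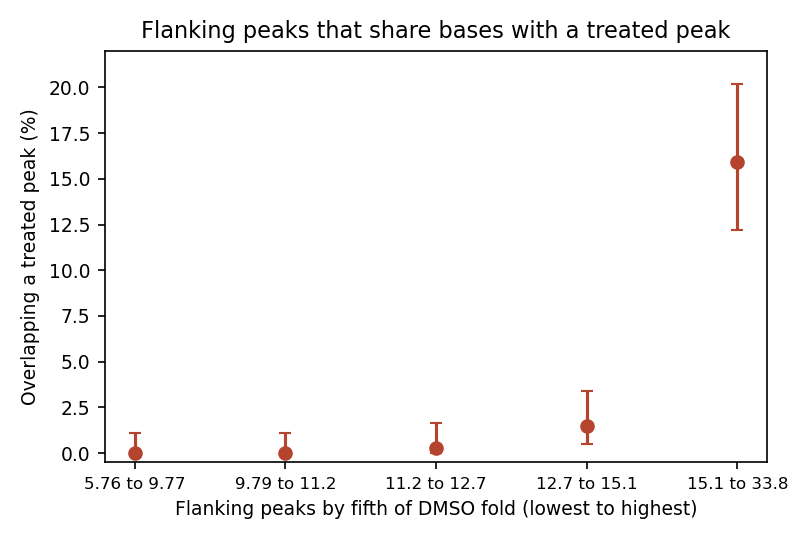
Share of flanking peaks that share at least 1 bp with a treated peak, in 5 groups of 340 by DMSO fold enrichment, with exact 95% intervals. The share is 0 in both lowest groups and 15.9% in the group of highest fold.

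The 60 flanking peaks held 65 treated peaks, 13.2% of the treated list. These were small, with a median width of 590 bp and a median fold of 5.19 (3.86 to 7.07), and a median of 39 fragments (35 to 68) behind the summit. Folds of the lists are on separate scales and are not set against each other as a change. The treated summits lay at a median position of -235 bp (negative values are outside the gene) and a median of 196 bp from the DMSO summit. Of the 65, 57 lay within 500 bp of it (87.7%). These treated peaks were selected for overlap with the DMSO peaks, whose median width was 4050 bp, which limits that distance from the outset. At 17 of 65 (26.2%) the treated summit was at or inside the gene's edge.

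By gene, the highest treated folds were 7.07 at Camta1, with summits 5 bp apart in the 2 lists, and 7.05 at Setd5, with summits 196 bp apart. H2az1, for the histone variant H2A.Z, had 6.65 (DMSO fold 21.9), Kmt2e, for a chromatin regulator, had 6.24, and Stip1, for a co-chaperone of heat shock proteins, had 6.13 (18.6). Bhlhe40 (6.04), Pknox1 (5.99), and the histone demethylase gene Kdm3a and the lectin gene Mlec (both 5.97) came next. Zfp367 and Zswim6 both had 5.84, and Irs2, an adaptor of the insulin receptor, had 5.80 with summits 6 bp apart. Sp1, second by DMSO fold, had a treated fold of 5.71.

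Strong DMSO peaks without a treated peak included Clcf1 (24.6), Baiap2l1 (23.6), Mdc1 and Vim (both 23.1), Ankhd1 (22.9), and Trib1 and Ranbp3 (both 22.4). Each of these had 91 to 103 fragments at the DMSO summit. The weakest DMSO peak that met a treated one was at Gm52481 on the Y chromosome, with a fold of 11.7 from 130 fragments, and its treated peak had the lowest fold (3.86) with the highest coverage (68 fragments). Its pull-down coverage was thus high in both lists, beside a background above the floor.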

How the data were processed

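Biotin-labelled DNA ends and inputs were sequenced from 6 samples, and the authors deposited 1 pooled peak list per condition (2 pull-downs against 1 input), per the peak names in the files. The submitters' processing notes name the build mm10, MACS2 2.1.0, STAR 2.5.2a, Picard 1.141, bcl2fastq 2.17.1.14 and SAMtools 0.1.19, and do not say what each was used for or how it was set. What a peak had to pass to enter a list was not stated in the sources. Per the labels' protocols, DNA was sheared before the pull-down and amplified by PCR, so a summit is not a break position and fragments are not independent molecules. The deposited score is the whole part of 10 times the −log10 p. The fold enrichment is a ratio at the summit computed by the authors' caller. The −log10 p and −log10 q values are also the deposited values of the authors' caller. They were used to describe and rank peaks within a list.

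The files hold no read totals. Pull-down fragments and the background term at a summit were recovered by inverting the caller's fold (scaled pull-down plus 1 over background plus 1) and Poisson p, where 1 pull-down fragment counts as 0.805 (DMSO) or 0.439 (treated), which solved 100% of peaks in both lists to within 0.001 of the −log10 p. Fragments are printed before that scaling and the background term after it. The background term is not let below 2.32 in the DMSO list and is not a direct measure of input. The inversion and the position rules were tested on simulated data.

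Gene spans came from the RefSeq table of GRCm38, and starts, strands and promoter windows from the RefSeq promoter table of the same assembly. The strand listed there decided which edge of a gene's span was its start. The flanking peaks and gene lists were chosen with earlier results of these data known. Named were the 12 peaks of highest fold, the 12 of highest treated fold among those met, the 5 just inside and 5 just outside the limit, the 5 widest, genes with several flanking peaks, and the leading genes of each list. The narrowest, the far-end, the lncRNA, the CpG-poor and the unmet examples were chosen after their values were seen, as were the motifs. No genome sequence was used here. Scripts ran under Python 3.11.15 with pandas 2.3.3, SciPy 1.17.1, NumPy 2.4.6 and Matplotlib 3.10.9.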

Additional observations from a re-analysis of the deposited data

How the results depend on the processing

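No paired analysis was possible because each list pools the replicates of its condition and no column carries a replicate, and leaving out a replicate could not be run for the same reason. Of 42 alternatives over 27 results, 15 moved the value. The other 27 left it within its counting interval, within 1.5 times a count or, for medians, within 1 SD over peaks. Whether a direction reversed was not scored. The 1700 flanking peaks became 1029 with folds at or above the median of the list and 214 with a −log10 q of at least 50. The median distance from the gene end was 179 bp when the middle of the peak took the place of the summit, against 278 bp. The share beside a start was 96.5% with a limit of 2 kb and 98.9% at that q. Overlap with treated peaks was 1.29% over treated peaks with a −log10 q of at least 5, 5.83% at or above the median fold and 23.8% at the stricter DMSO q, where the median fold was 18.5. Peaks reaching into the gene were 94.8% when 200 bp were asked for and 98.4% at or above the median fold. CpG-rich windows were 67.1% under a GC fraction of 0.55 and a CpG ratio of 0.75, where coding genes had 28.1%. A non-coding gene end was near 14.8% of summits within 500 bp and 22.9% within 2 kb. Windows with a GC box were 85.1% among CpG-rich windows, an alternative chosen after seeing the data, as was that for the CCAAT box. Of 16 gene lists, 15 stayed within that interval at 2 kb, and histone genes fell to 11.7%. Stricter thresholds keep fewer peaks by construction, and the cause of the other shifts was not tested. The weakest flanking peaks rest on 35 fragments, which limits what single peaks show.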
